A study of Zea mays with 72 samples.

Results

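The late HAC-raised genes are 117 maize genes, of 32235 genes with values, whose transcripts stood higher in immature leaves after 2 h of exposure to (Z)-3-hexenyl acetate (HAC) than in both untreated leaves and leaves exposed for 30 min. They were chosen by measured values. In leaf 5 and again in leaf 6, the mean count per 1000000 counts of the library (CPM, with 0.5 added) had to be at least 3 times the control mean and at least 2 times the 30 min mean, with a mean of at least 5 CPM at 2 h. The levels of these 3 groups in leaves 5 and 6 therefore describe the choice and are given without a test. Leaf 4 and the libraries treated with ZmPep3 played no part in the choice. In leaves 5 and 6, however, ZmPep3 is set against the same controls that entered it, so every fold change and call for ZmPep3 in those leaves depends on the choice and is given as a description.

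The samples were detached whole leaves of B73 seedlings, cut under water, rested and kept in water in cylinders with clean airflow. By the series' description leaf 4 counted as mature, leaves 5 and 6 as immature. For each leaf there were 6 biological replicates of each of 4 groups: leaves given the peptide ZmPep3 in the water at about 1 µM for 2 h, leaves exposed to HAC from a dispenser for 30 min or 2 h, and untreated controls. Leaf 4 alone had its sheath removed before cutting, so leaf position and this extra wound cannot be told apart, and the labels give no harvest hour for the controls. The 72 libraries held 26212027 to 31052273 counts each (median 29911694). The 8 symbols listed for leaf photosynthesis matched 8 genes, though not one each, since pep1 and PDK1 each stood for more than 1 gene. The levels of the matched genes summed to between 11656 and 35191 CPM in every library, with ZmPep3 leaves of position 4 at the low end. The 8 meristem and ligule symbols matched 5 genes, with sums of 1.00 to 13.6 CPM that were highest in leaf 6. Of these genes, knox3 and lg4 were at or near 0. The leaf 4 control library of replicate 2 stood apart, as described below.

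HAC is a green leaf volatile, released within moments when a leaf is wounded and perceived by neighbouring tissue as a sign of damage. ZmPep3 belongs to the plant elicitor peptides, which bind receptors at the cell surface and start the same broad kind of defence from within a plant. In maize, both cues are known to lead to jasmonates, made from fatty acids by lipoxygenases and the enzymes that follow them, and to volatile terpenes and indole-derived compounds. Grasses also hold benzoxazinoids, indole-derived toxins stored as glucosides.

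Only 30 of the 117 genes had a name in the reference table, and the other 87 are known by a locus or gene number alone and are given no role here. Among the named genes were lipoxygenases (lox1, lox2, lox3 and lox5) and enzymes of jasmonate synthesis (aos1, aos2 and opr7). They also included terpene synthases (tps10, TPS2, TPS3 and TPS5), the anthranilate methyltransferase AAMT1, and benzoxazinoid cytochrome P450 enzymes (bx2, BX3 and BX5). The other named genes, among them the annexins Ann8 and Ann9 and a pair under the symbol Natterin-4, belong to none of these groups. No symbol of the TIFY repressors of jasmonate responses or of the WRKY, MYB, NAC, AP2/ERF or bHLH transcription factors was among them.

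Choice by these thresholds left ratios at 2 h of HAC over control between 3.00 and 120 in leaf 5 (median 5.64) and between 3.05 and 155 in leaf 6 (median 7.16). Over 30 min the ratios at 2 h had medians of 3.79 in leaf 5 and 4.24 in leaf 6. The genes nearest the limits were LOC100217049, inside at 3.00 times the control in leaf 5, and LOC103650192, outside at 2.99. In leaf 6, MRP1 stood inside at 3.05 and LOC100382315 outside at 2.94. LOC100216882 was inside at 2.03 times the 30 min level in leaf 5 and LOC100276951 outside at 1.98, while in leaf 6 LOC100272675 was inside at 2.12 and LOC100383045 outside at 1.9996. For the level at 2 h, LOC100216740 (5.34 CPM in leaf 5) and LOC100274022 (5.95 CPM in leaf 6) were inside, and gene 109943031 (4.94 CPM in leaf 5) and LOC103635837 (4.90 CPM in leaf 6) were outside. Of the genes that failed a single condition and met the rest, 37 failed on the leaf 5 ratio to control, more than on any other condition.

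The genes were not all silent at 30 min. The ratio of 30 min of HAC to control had a median of 1.40 in leaf 5 (0.608 to 12.2) and 1.62 in leaf 6 (0.890 to 14.7). In both leaves, 25 genes were already at or over 2 times the control at 30 min, 39 were under 1.5 times, and the other 53 lay between or differed between the leaves. At 2 h, 91 of the 117 had a higher mean in leaf 6 than in leaf 5, with a median ratio of 1.36. The share over all genes was not counted and both levels entered the choice, so nothing is read from this. Together the 117 genes held 0.826% of all counts in leaf 5 controls, 1.23% at 30 min and 4.47% at 2 h. In leaf 6 the means of that share were 1.13% in controls, 2.07% at 30 min and 7.18% at 2 h, and 4.58% at 2 h without lox1, lox2 and LOC107303346.

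**Figure D1:**
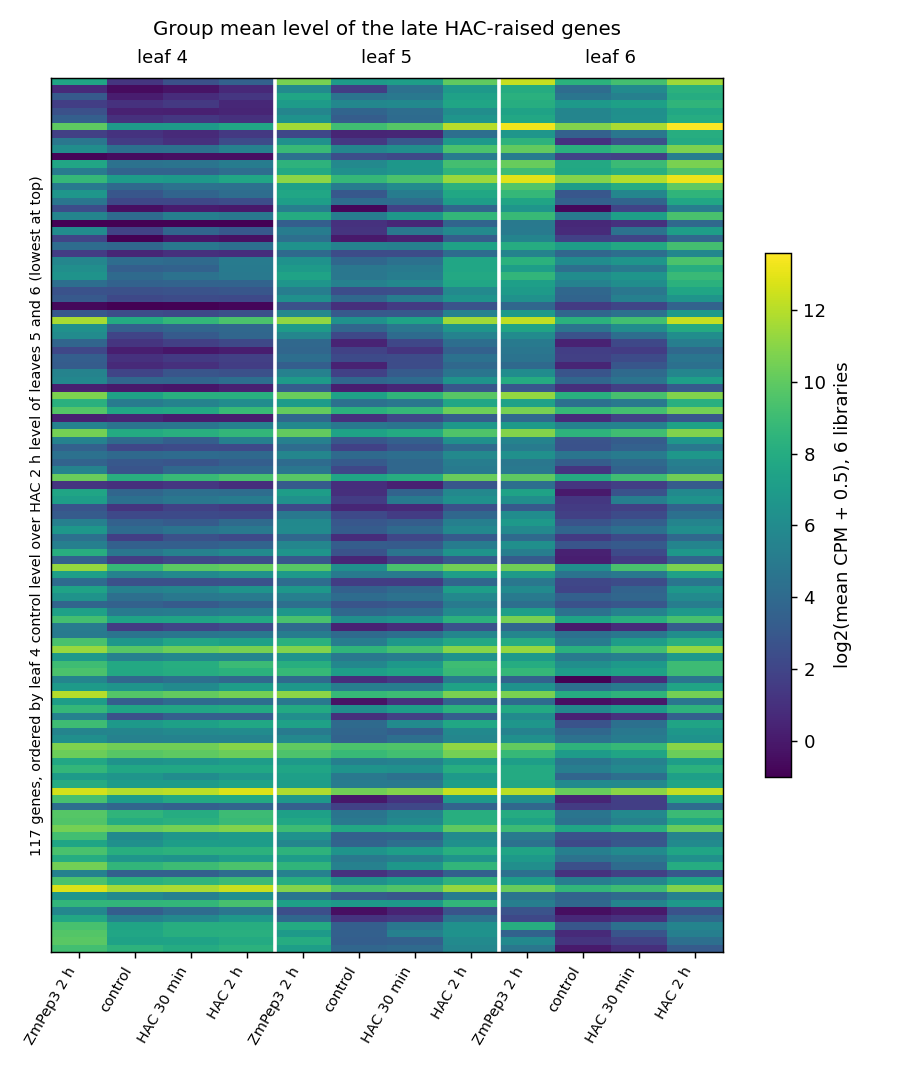
Group means of the 117 genes (rows) as log2(mean CPM + 0.5) over 6 libraries, in 12 groups (columns), ordered by the level in leaf 4 controls over the HAC 2 h level in leaves 5 and 6. The 18 rows at the bottom had more transcript in leaf 4 controls than at 2 h of HAC in the immature leaves, and the rows at the top have the lowest leaf 4 control levels relative to it.

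Lipoxygenases add oxygen to unsaturated fatty acids, a step that leads to jasmonates or to other oxylipins. Which of these products the lipoxygenases among the 117 genes lead to was not measured. At 2 h of HAC lox2 averaged 1411 FPKM (fragments per kilobase, scaled to depth) in leaf 5 and 4211 FPKM in leaf 6, while lox3 averaged 37.8 FPKM and 94.5 FPKM. lox5 had 2101, 2906 and 4102 CPM (lowest, median and highest of 6 libraries) in leaf 5 at 2 h of HAC, against 61.7, 70.5 and 140 CPM in leaf 5 controls. In leaf 6 it had 4267, 5101 and 5220 CPM at 2 h of HAC, against 240, 279 and 487 CPM in controls. No library at 2 h came near a control in either leaf, a separation that the choice of genes favours. In leaf 4, lox5 had 430, 647 and 1034 CPM at 2 h of HAC, against 104, 172 and 633 CPM in controls. The leaf 4 groups overlapped there only through the control library of replicate 2, and the next highest control had 256 CPM.

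lox5 rose 2.98-fold in leaf 4 at 2 h of HAC (log2 1.58 ± 0.32, SE, with adjusted p = 0.00414, edgeR's quasi-likelihood test). With only these 2 groups fitted, the rise did not pass (adjusted p = 0.144 by edgeR). The mean levels of lox1 and lox2 in leaf 4 were 196 and 199 CPM at 2 h of HAC, against 133 and 119 CPM in controls. Those differences did not pass (adjusted p = 0.208 for lox1 and 0.0976 for lox2 by edgeR), and neither did that of lox3, with 14.9 CPM at 2 h of HAC against 10.2 CPM in controls (adjusted p = 0.310). With ZmPep3 all 4 rose in each leaf. In leaf 4, lox5 had 2243, 3048 and 4612 CPM with ZmPep3, all above every control, a 15.5-fold rise (log2 3.95 ± 0.35, adjusted p = 1.6e-14 by edgeR). lox2 rose 9.59-fold, lox3 9.21-fold and lox1 3.64-fold there. lox1 and lox2 lie next to each other in the gene order of the reference, and reads of similar copies may have been divided between them.

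Allene oxide synthases (aos1 and aos2) and the 12-oxo-phytodienoic acid reductase opr7 act after a lipoxygenase in the synthesis of jasmonic acid. Whether lox1, lox2, lox3 or lox5 supply them was not tested. In leaf 4, aos1 had 1086, 1734 and 1986 CPM with ZmPep3 and 172, 305 and 402 CPM at 2 h of HAC, against 65.2, 155 and 343 CPM in controls. The HAC group overlapped the controls and the ZmPep3 group did not. The HAC difference narrowly missed the threshold (log2 0.91 ± 0.26, adjusted p = 0.0531 by edgeR), and the ZmPep3 rise was 11.5-fold (log2 3.53 ± 0.29, adjusted p = 3.4e-16). aos2 rose 10.7-fold with ZmPep3 in leaf 4, with 200 CPM on average against 21.7 CPM in controls. opr7 rose by smaller factors, 1.56-fold at 2 h of HAC (adjusted p = 0.0129 by edgeR) and 2.78-fold with ZmPep3 in leaf 4. Its HAC call ended with only the 2 groups of that comparison fitted (adjusted p = 0.107 by edgeR). In leaf 6 opr7 had 133, 144 and 163 CPM with ZmPep3, against 22.0, 25.1 and 26.3 CPM in controls, a 6.55-fold rise.

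The terpene synthases make the volatile blend of damaged maize. tps10, whose enzyme forms sesquiterpenes that attract parasitoid wasps, had the largest ratio of leaf 4 to leaf 5 control means among the 117 genes, 137 with 0.5 CPM added to each. It had 33.6, 144 and 161 CPM in leaf 5 at 2 h of HAC, against 0.10, 0.485 and 0.776 CPM in controls, and 179, 225 and 249 CPM in leaf 6 at 2 h, against 0.0668, 0.610 and 2.63 CPM in controls. In leaf 4 it had 102, 221 and 374 CPM at 2 h of HAC, against 39.6, 94.7 and 321 CPM in controls. The lowest leaf 4 control thus lay above every control of leaves 5 and 6. The leaf 4 HAC difference did not pass (log2 0.85 ± 0.48, adjusted p = 0.415 by edgeR). With ZmPep3, tps10 had 380, 669 and 797 CPM in leaf 4, above all controls, and rose 5.61-fold (log2 2.49 ± 0.51, adjusted p = 4.6e-05). In leaf 5 with ZmPep3 it rose by log2 7.87 ± 0.70, and in leaf 6 by 6.51 ± 0.65, or 7.17 without leaf 6 control replicate 5.

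TPS2 (732758) and TPS3 (732759) are terpene synthases separated by a single coding gene in the reference order. TPS2 averaged 1407, 368 and 73.8 CPM with ZmPep3 in leaves 4, 5 and 6, against 387, 42.1 and 5.35 CPM in their controls. TPS3 averaged 809, 124 and 11.3 CPM with ZmPep3, against 200, 10.7 and 1.14 CPM in controls. Both rose with ZmPep3 in each leaf, and the factors for TPS2 were 4.17, 8.99 and 15.2 in that order of leaves. TPS5 (103641226), a sesquiterpene synthase gene that lies with tps10 and has 3 coding genes between them, ran the other way by leaf. It averaged 3.41 CPM with ZmPep3 in leaf 4, against 0 in all 6 controls, and so stood at least 33.3-fold above the level of 3 counts in the smallest control library. In leaf 6 it averaged 47.2 CPM with ZmPep3 and 14.7 CPM at 2 h of HAC, against 2.97 CPM in controls. The TPS symbol is also used for other maize genes, so each is given with its NCBI Gene number.

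AAMT1 makes methyl anthranilate, a volatile from the indole branch. It had 310, 372 and 423 CPM in leaf 6 at 2 h of HAC, against 3.78, 7.63 and 9.11 CPM in controls, and leaf 5 had 146, 200 and 279 CPM at 2 h of HAC against 4.22, 7.83 and 9.85 CPM in controls. In leaf 4 it had 9.20, 19.7 and 25.9 CPM at 2 h of HAC, against 3.21, 4.58 and 14.9 CPM in controls. These leaf 4 groups overlapped, and the difference passed (2.79-fold, log2 1.48 ± 0.28, adjusted p = 0.00209 by edgeR). It did not pass with only these 2 groups fitted (adjusted p = 0.134 by edgeR). With ZmPep3 AAMT1 had 56.1, 102 and 142 CPM in leaf 4, above every control and every HAC library, and rose 17.2-fold (log2 4.10 ± 0.31, adjusted p = 1.8e-17). The control means of AAMT1 were 6.87, 7.66 and 7.27 CPM in leaves 4, 5 and 6.

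**Figure D2:**
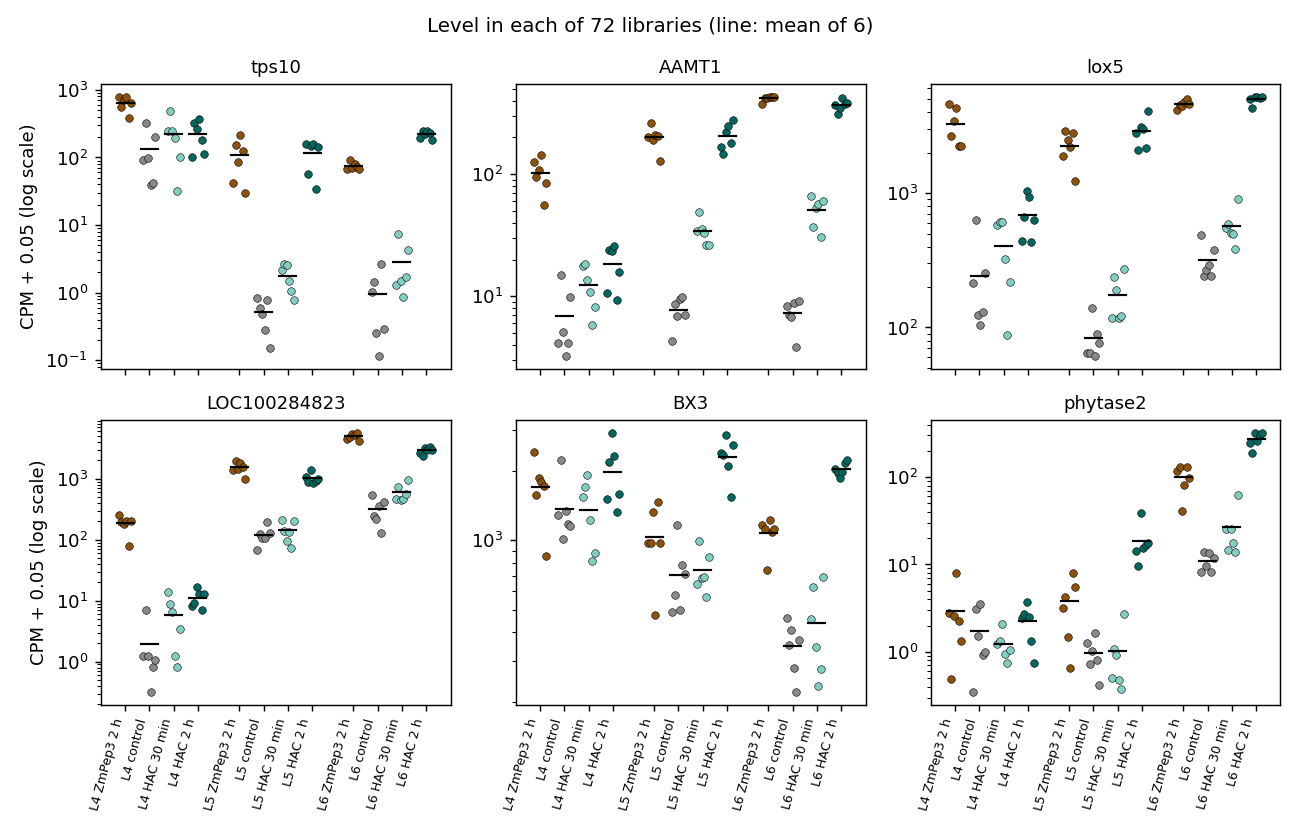
CPM plus 0.05 on a log axis in each of the 72 libraries for 6 of the genes, with L4, L5 and L6 for the leaves and lines at the means of 6. tps10 averages 132 CPM in leaf 4 controls and under 1 CPM in controls of leaves 5 and 6, while phytase2 averages 273 CPM in leaf 6 at 2 h of HAC and under 3 CPM in all leaf 4 groups.

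The benzoxazinoid genes bx2, BX3 and BX5 encode cytochrome P450 enzymes that oxidise indole-derived intermediates in successive steps, and they lie close together in the reference order. In leaf 4 the fitted factors with ZmPep3 were 1.15 for bx2, 1.44 for BX3 and 1.64 for BX5. BX3 had 853, 1748 and 2399 CPM in leaf 4 with ZmPep3 and 1325, 1884 and 2922 CPM at 2 h of HAC, against 1012, 1226 and 2231 CPM in controls. All 3 leaf 4 groups overlapped, and neither difference from control passed (adjusted p = 0.0714 with ZmPep3 and 0.197 with HAC by edgeR). The ZmPep3 difference passed without control replicate 2 (0.0142) or ZmPep3 replicate 6 (0.0232). In leaf 5 BX3 had 476, 974 and 1460 CPM with ZmPep3 and 1541, 2356 and 2837 CPM at 2 h of HAC, against 488, 647 and 1163 CPM in controls. The ZmPep3 libraries spread over the control range there, while every HAC library lay above both. The fitted factor of BX3 with ZmPep3 in leaf 5 was 1.52. Its call as higher there ended when only those 2 groups were fitted. It also ended without ZmPep3 replicate 3 or 5 or control replicate 1, 2 or 4.

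bx2 was the single gene of the 117 not called higher with ZmPep3 in leaf 5, with a mean of 153 CPM against 123 CPM in controls (log2 0.37 ± 0.47). In leaf 6 it averaged 37.7 CPM with ZmPep3 and 118 CPM at 2 h of HAC, against 14.1 CPM in controls, and its fitted factor with ZmPep3 was 2.96. The factors for BX5 with ZmPep3 were 1.64, 1.65 and 3.82 in leaves 4, 5 and 6. In controls the order of leaves was the reverse of that of lox1, lox2 and lox3: bx2 averaged 385 CPM in leaf 4, 123 CPM in leaf 5 and 14.1 CPM in leaf 6.

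Among single enzymes, SAMS1, an S-adenosylmethionine synthetase that supplies methyl groups, had 1059, 1451 and 1851 CPM in leaf 4 at 2 h of HAC, against 529, 670 and 1266 CPM in controls. The ranges overlapped, and the 1.93-fold rise passed (log2 0.95 ± 0.18, adjusted p = 0.00209 by edgeR). With ZmPep3 it had 3272, 3871 and 5102 CPM in leaf 4, a 5.65-fold rise with no overlap. The polyamine oxidase MPAO averaged 1187 CPM with ZmPep3 and 660 CPM at 2 h of HAC in leaf 4, against 295 CPM in controls. Both differences passed (adjusted p = 4.5e-08 with ZmPep3 and 0.0250 with HAC by edgeR). With only the HAC 2 h and control groups fitted, neither SAMS1 nor MPAO passed (adjusted p = 0.0970 and 0.210 by edgeR). The HAC call of MPAO also ended in several fits without single libraries, given below.

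The glutathione transferase GST25 had 49.9, 78.2 and 157 CPM in leaf 4 at 2 h of HAC, against 21.3, 36.4 and 97.2 CPM in controls, just short of the threshold (adjusted p = 0.0515 by edgeR). With ZmPep3 it rose in leaves 4, 5 and 6 by 4.75-fold, 9.74-fold and 19.1-fold. cda2, a cytidine deaminase, was lowly expressed, with means of 13.8 to 19.9 CPM with ZmPep3 over the 3 leaves, against 1.32 to 2.71 CPM in controls, and its factors were 8.36, 10.7 and 7.5 in leaves 4, 5 and 6. The annexin genes Ann8 and Ann9, whose proteins bind membranes in the presence of calcium, are neighbours in the reference order. Ann9 averaged 10.2 CPM with ZmPep3 in leaf 4 against 1.52 CPM in controls (7.67-fold), and Ann8 20.9 CPM against 15.4 CPM (1.55-fold), both past the threshold.

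Several named genes rose with ZmPep3 in the immature leaves and had no called change in leaf 4. phytase2, which releases phosphate from phytate, had 189, 281 and 324 CPM in leaf 6 at 2 h of HAC and 41.1, 107 and 131 CPM with ZmPep3, against 8.05, 10.6 and 14.0 CPM in controls. In leaf 4 it stayed low, with 0.435, 2.38 and 8.0 CPM with ZmPep3 and 0.691, 2.42 and 3.66 CPM at 2 h of HAC, against 0.301, 1.2 and 3.52 CPM in controls. Neither leaf 4 difference passed (adjusted p = 0.110 with ZmPep3 and 0.733 with HAC by edgeR), though the ZmPep3 difference did without control replicate 4 (0.0399) or ZmPep3 replicate 2 (0.0498). Without ZmPep3 replicate 4, the library with 8.0 CPM, the log2 difference was 0.32 (adjusted p = 0.659) in place of 0.98. Dwarf2 averaged 21.0 CPM with ZmPep3 in leaf 5 against 4.87 CPM in controls and rose 4.43-fold, while in leaf 4 it averaged 0.0725 CPM with ZmPep3 against 0.196 CPM in controls (adjusted p = 0.261). AO1, an aldehyde oxidase, rose with ZmPep3 by factors of 2.96 in leaf 5 and 3.62 in leaf 6, and in leaf 4 averaged 13.0 CPM with ZmPep3 against 11.2 CPM in controls (adjusted p = 0.109, or 0.0485 without ZmPep3 replicate 5). Both genes with the symbol Natterin-4 likewise passed with ZmPep3 in leaves 5 and 6 and not in leaf 4. The differences between leaves were not tested.

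Of the genes without a name, LOC107303346 was the most abundant per transcript length over leaves 5 and 6, with 3137 FPKM in leaf 5 and 2844 FPKM in leaf 6 at 2 h of HAC. In leaf 4 it had 5710, 6759 and 8807 CPM at 2 h of HAC, against 2656, 3603 and 6383 CPM in controls, and rose 1.92-fold (adjusted p = 0.00164 by edgeR). LOC103626993 had the largest fitted rise with ZmPep3 in leaf 5, with means of 37.5 CPM against 0.0948 CPM in controls (log2 8.60 ± 0.57). In leaf 6 its means were 96.0 CPM with ZmPep3 and 0.112 CPM in controls. The leaf 4 rise of LOC103626993, log2 4.43 ± 0.51 with ZmPep3, was 5.75 without control replicate 2.

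LOC100284823 was abundant in the immature leaves and nearly silent in leaf 4 controls. It had 4099, 5059 and 5757 CPM in leaf 6 with ZmPep3 and 2415, 2977 and 3273 CPM at 2 h of HAC, against 129, 305 and 550 CPM in controls. In leaf 4 it had 77.6, 199 and 253 CPM with ZmPep3 and 6.99, 10.9 and 16.9 CPM at 2 h of HAC, against 0.273, 1.09 and 6.89 CPM in controls. Every HAC and ZmPep3 library of leaf 4 lay above every control, though the HAC level stayed below the leaf 6 control range. It rose 6.22-fold with HAC (log2 2.64 ± 0.44, adjusted p = 8.8e-04 by edgeR) and 115-fold with ZmPep3 (log2 6.84 ± 0.51). Without leaf 4 control replicate 2 these log2 values were 3.70 and 7.93. The HAC call ended with only the 2 groups of that comparison fitted (adjusted p = 0.0901 by edgeR).

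The median ratio of leaf 4 controls to leaf 5 controls was 1.56, with 79 of the 117 genes (67.5%) higher in leaf 4, against a median of 1.16 and 62.2% over all tested genes. To leaf 6 controls the median was 1.43, with 71 (60.7%) higher, against 1.19 and 59.9% over all tested genes. The shares lay close to those of all genes, and the choice itself favoured genes with low controls in leaves 5 and 6, so nothing about the 117 genes is read from these ratios. The spread was wide: 12 genes averaged under 1 CPM in leaf 4 controls and 35 at least 100 CPM. In 39 genes the leaf 4 control mean was at most 0.1 of the HAC 2 h mean of the immature leaves, and in 18 it was above it. In these whole leaves, more cells that express a gene and more RNA per cell cannot be told apart.

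In leaf 4 at 2 h of HAC, 29 of the 117 genes (24.8%) were higher than in controls and 0 lower by edgeR at an adjusted p under 0.05, where 0.923% of all 25558 tested genes were called higher and 0.763% lower. At an unadjusted p under 0.05, 71 were higher and 0 lower, where 7.52% of all genes were higher and 7.30% lower. DESeq2 called 39 higher and 0 lower, where it called 1.31% of all genes higher. The median log2 fold change was 0.72, against 0.00 over all tested genes. Of the called genes 16 were at least 2-fold higher, and over all tested genes the 95th percentile was a log2 fold change of 0.77. In 6 genes every HAC library lay above every control, as in 0.286% of all tested genes. The fitted value was above 0 for 113 genes. The 4 below 0 were LOC100272675 (−0.64), LOC100285310 (−0.55), LOC103632815 (−0.07) and LOC103634970 (−0.02), none past the threshold. Besides the named enzymes above, LOC100285766 rose 4.15-fold with 13.6 CPM at 2 h of HAC against 3.43 CPM in controls (adjusted p = 7.3e-07), LOC101027254 rose 3.27-fold (31.9 CPM against 10.3 CPM) and LOC100282209 rose 3.12-fold (1.93 CPM against 0.643 CPM). LOC100501517 rose 6.77-fold but stayed at 1.08 CPM against 0.163 CPM in controls, and its log2 value of 2.76 was 3.5 without control replicate 2. LOC100274155 is in the count with a mean of 0.103 CPM at 2 h of HAC against 0 in every control, a level of about 3 counts a library, and its call ended without HAC 2 h replicate 2 or 3 or control replicate 1, 3, 4 or 5.

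This count depended on the fit and on single libraries. With only the HAC 2 h and control libraries of leaf 4 fitted, 7 of the 117 (5.98%) were called, where 0.168% of all tested genes were. The 117 here include 5 members that this fit did not test. AAMT1, lox5, opr7, SAMS1, MPAO, LOC100284823, LOC100501517, LOC101027254 and LOC100191290 were among those lost, with adjusted p between 0.0720 and 0.210, and LOC100285766, LOC100282209 and LOC107303346 were kept. The count was 46 without control replicate 2, 18 without control replicate 4, 19 without control replicate 5 and 18 without HAC 2 h replicate 3. The calls of opr7 and MPAO ended without HAC 2 h replicate 3 or control replicate 4, and that of MPAO also without HAC 2 h replicate 2 or control replicate 1, 3 or 5. Without control replicate 2, lox2, aos1, GST25 and TPS2 (732758) passed, with adjusted p of 0.00291, 0.00387, 0.00480 and 0.0235. By DESeq2 on all libraries aos1, GST25 and TPS2 passed as well (adjusted p = 0.0203, 0.0320 and 0.0435).

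**Figure D3:**
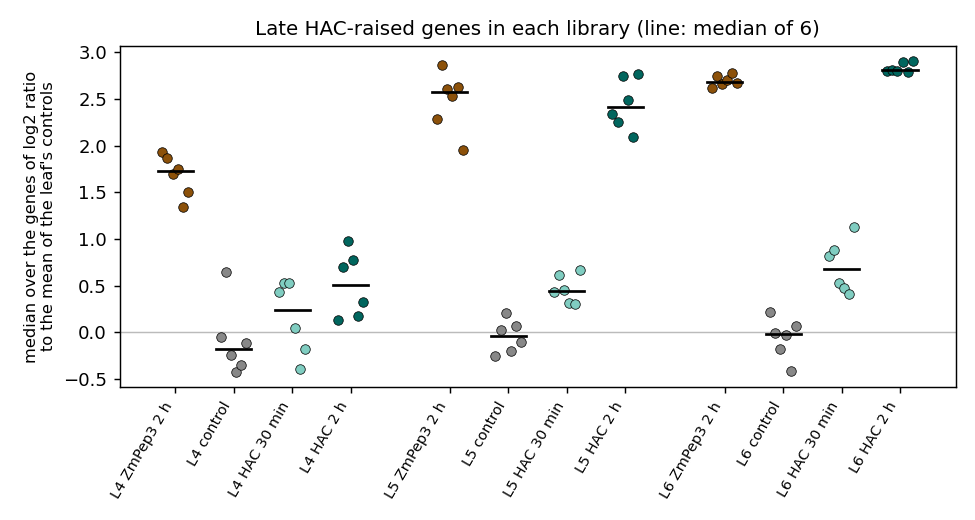
For each library, the median over the 117 genes of the log2 ratio to the mean of that leaf's controls, by group, with lines at the median of 6 libraries. In leaf 4 the HAC 2 h libraries lie between 0.13 and 0.98 and overlap the control of replicate 2 at 0.65, while the other 5 controls lie at −0.06 or below; the ZmPep3 libraries, at 1.34 to 1.93, stand clear of all controls.

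At 30 min of HAC in leaf 4, 14 of the 117 genes were higher and 0 lower than in controls, where 2.53% of all tested genes were called higher and 1.85% lower. At an unadjusted p under 0.05, 38 were higher and 1 lower, where 8.91% of all genes were higher and 8.01% lower. DESeq2 called 19 higher and 0 lower, where it called 3.00% of all genes higher. The median log2 fold change was 0.35. Libraries 5 and 6 of this group lay low over the 117 genes, with library medians of −0.39 and −0.18 against 0.05 to 0.53 in the other 4. The count was 31 without these 2 libraries, where 3.24% of all genes were called higher. Since the 117 genes themselves lay low in them, fits without these 2 libraries are no independent check. With only the 30 min and control libraries fitted the count was 4 of the 117 (3.42%), which include 6 members not tested there. Of all genes tested in that fit 2.02% were called, a share near that of the members. Without single libraries it was 30 without control replicate 2, 23 without 30 min replicate 5, 8, 7 and 6 without control replicates 3, 4 and 5, and 6 and 5 without 30 min replicates 1 and 2. Between 2 h and 30 min of HAC in leaf 4, 14 genes were higher at 2 h and 0 lower, where 1.49% of all genes were called higher and 2.11% lower, and the median was 0.36. In a fit of these groups alone this count was 2 of the 117 (1.71%), which include 4 members not tested there. That share was below the 2.20% of all tested genes called. Without libraries 5 and 6 at 30 min the count was also 2, where 1.00% of all genes were called. Over single libraries left out it ran from 2 to 17, with 7, 3 and 6 without HAC 2 h replicates 2, 3 and 4 and 6, 2 and 3 without 30 min replicates 4, 5 and 6. At an unadjusted p under 0.05, 40 were higher and 1 lower, where 7.94% of all genes were higher and 8.53% lower, and DESeq2 called 17 higher and 0 lower, where it called 2.20% of all genes higher. The matching rises in leaves 5 and 6 chose the genes, so the 3 leaves are not compared by a test.

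ZmPep3 raised most of the genes in leaf 4 and nearly all in leaves 5 and 6. In leaf 4, 101 of the 117 (86.3%) were higher than in controls and 0 lower by edgeR, where 20.3% of all tested genes were called higher and 21.9% lower. At an unadjusted p under 0.05 also 0 were lower, where 26.1% of all genes were, and DESeq2 called 0 lower. The median log2 fold change was 2.00, and 91 called genes rose at least 2-fold by the fitted value. Over all tested genes the middle 50% of log2 fold changes ended at 0.37 and the 95th percentile was 1.84. In 74 genes every ZmPep3 library lay above every control, as in 7.92% of all tested genes. In leaf 5, 116 genes were higher, where 22.4% of all genes were (and 23.0% lower), with a median of 2.67. In leaf 6 all 117 were higher, where 23.3% of all genes were (and 18.8% lower), with a median of 3.02. The controls of leaves 5 and 6 also served in the choice of the genes, so those 2 counts are not independent of it and support nothing by themselves. The genes matched to photosynthesis symbols summed to 11656 to 19914 CPM with ZmPep3 in leaf 4 and 15350 to 23177 CPM in its controls. Their part in these counts was not tested. Leaf 4 shares no library with the choice, though HAC and ZmPep3 in leaf 4 were set against the same 6 controls.

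The 16 genes not called with ZmPep3 in leaf 4 were bx2, BX3, phytase2, Dwarf2, AO1, both Natterin-4 genes and 9 genes without a name. Fitted values were below 0 for Dwarf2 (−1.19) and LOC100272675 (−0.19). That of Dwarf2 was −0.57 without control replicate 2 and −1.96 without ZmPep3 replicate 6. Beyond the genes described above, LOC100282200 rose 23.95-fold with ZmPep3 in leaf 4 (65.5 CPM against 3.18 CPM in controls), or by log2 5.26 in place of 4.58 without control replicate 2, and LOC100285766 rose 21.6-fold (64.2 CPM against 3.43 CPM). In leaf 6, LOC100285633 averaged 168 CPM with ZmPep3 against 0.530 CPM in controls and LOC100281536 averaged 339 CPM against 1.69 CPM. Their log2 values of 8.41 and 7.78 were 9.19 without control replicate 2 and 8.38 without control replicate 6. LOC103631816 rose with ZmPep3 by factors of 50.9 in leaf 5 and 74.7 in leaf 6.

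**Figure D4:**
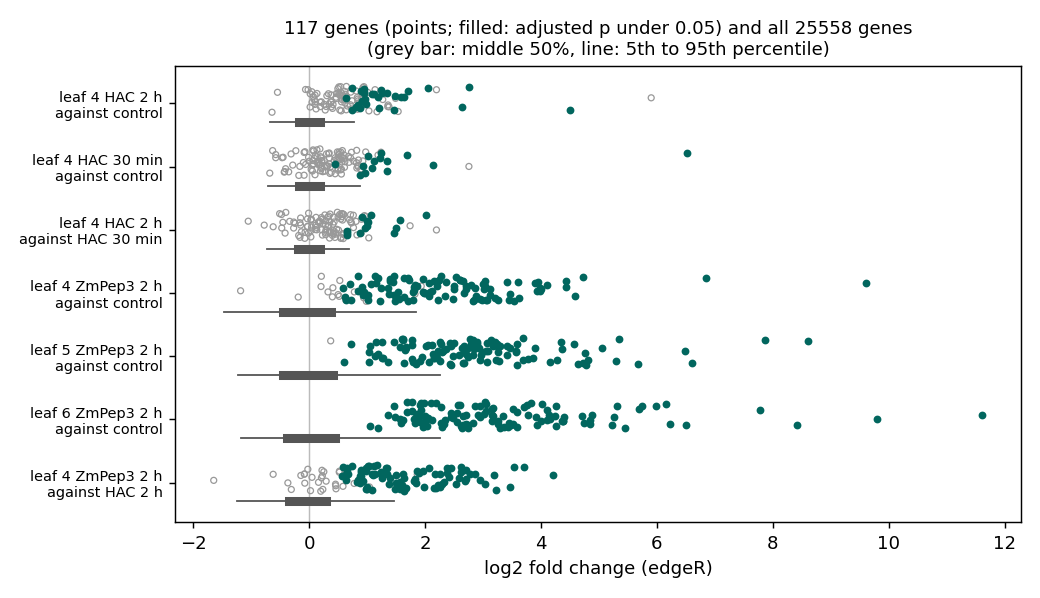
Log2 fold changes from edgeR for the 117 genes (points, filled where the adjusted p was under 0.05) beside the middle 50% and the 5th to 95th percentile of all 25558 tested genes (grey). The filled points number 29, 14 and 14 in the leaf 4 HAC comparisons and 101, 116 and 117 for ZmPep3 against control in leaves 4, 5 and 6.

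Set directly against HAC at 2 h in leaf 4, ZmPep3 left 88 of the 117 genes higher and 0 lower by edgeR, where 15.2% of all tested genes were called higher and 16.0% lower. At an unadjusted p under 0.05, 93 were higher and 1 lower, where 19.0% of all genes were higher and 21.1% lower, and DESeq2 called 88 higher and 1 lower, where it called 16.4% of all genes higher. The median log2 difference was 1.24, and 67 called genes were at least 2-fold higher. Over all tested genes the middle 50% of log2 differences ended at 0.29 and the 95th percentile was 1.45. In 60 genes every ZmPep3 library lay above every HAC library, as in 6.46% of all tested genes. lox5 was 5.18-fold higher with ZmPep3 than with HAC (log2 2.37 ± 0.33, adjusted p = 3.1e-08), aos1 6.15-fold, AAMT1 6.16-fold, tps10 3.11-fold, SAMS1 2.93-fold and LOC100284823 18.4-fold. BX3 (log2 −0.08 ± 0.24), bx2 (−0.62 ± 0.47) and LOC107303346 (−0.03 ± 0.17) did not differ past the threshold.

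In leaves 5 and 6 the HAC 2 h level chose the genes, and the levels with ZmPep3 are given beside it without a test. The ratio of the ZmPep3 mean to the HAC mean had a median of 0.871 in leaf 5, with 43 genes above 1, and 0.822 in leaf 6, with 38 above 1. The highest of the 12 group means was leaf 4 with ZmPep3 for 43 genes and leaf 6 at 2 h of HAC for 42. It was leaf 6 with ZmPep3 for 24. The share over all genes was not counted, and the choice favoured a high mean at 2 h of HAC in leaves 5 and 6. Nothing is read from these counts. As a share of all counts, the 117 genes made up 5.49% of leaf 4 libraries with ZmPep3 and 3.32% at 2 h of HAC, against 1.99% in controls. In leaf 5 they made up 3.66% with ZmPep3 and 4.47% at 2 h of HAC, against 0.826% in controls, and in leaf 6 the shares were 6.27%, 7.18% and 1.13% in that order.

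**Figure D5:**
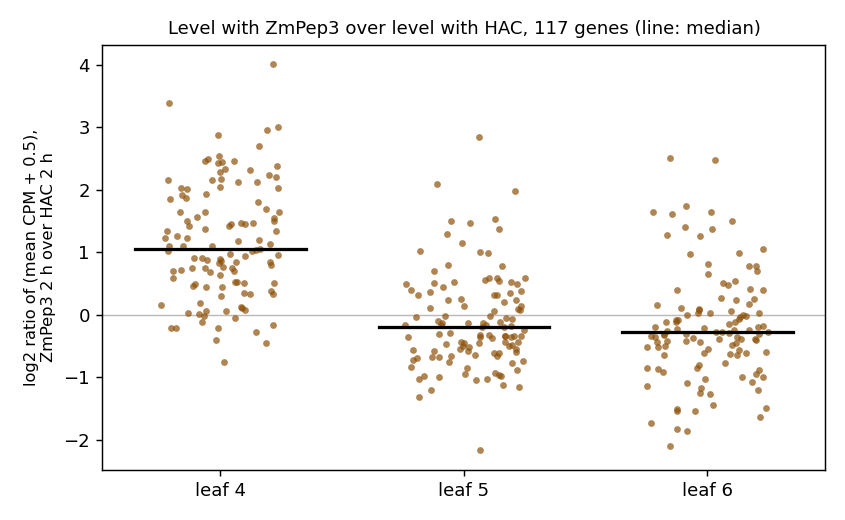
For each of the 117 genes, the log2 ratio of (mean CPM + 0.5) with ZmPep3 to that with HAC at 2 h, by leaf, with a line at the median. Most points lie above 0 in leaf 4 and below 0 in leaves 5 and 6, where the median ratios were 0.871 and 0.822 and the HAC level had chosen the genes.

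Other genes of the same pathways, listed by symbol or synonym, are set beside the members here. Over all tested genes, 0.923% were called higher in leaf 4 at 2 h of HAC and 20.3%, 22.4% and 23.3% with ZmPep3 in leaves 4, 5 and 6, and the list counts are to be read against those shares. Of 12 lipoxygenase symbols tested, members included, 2 were higher in leaf 4 at 2 h of HAC, and 10, 9 and 10 were higher with ZmPep3 in leaves 4, 5 and 6, with 0 lower. Among those outside the 117, lox4 had log2 fold changes of 2.59, 4.08 and 4.57 with ZmPep3 in leaves 4, 5 and 6. Of 14 allene oxide synthase, allene oxide cyclase and oxo-phytodienoate reductase symbols, 2 were higher in leaf 4 at 2 h of HAC, and 9, 11 and 12 were higher and 1 lower with ZmPep3 in leaves 4, 5 and 6. Of 11 benzoxazinoid symbols 0 passed at 2 h of HAC in leaf 4 by edgeR or DESeq2 (7 were higher at an unadjusted p under 0.05), and 6, 6 and 9 were higher and 0 lower with ZmPep3 in leaves 4, 5 and 6. The median log2 fold changes of that list with ZmPep3 were 0.66, 0.57 and 1.56, against −0.05, −0.06 and −0.02 over all genes.

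Of 20 tested genes under terpene synthase symbols, 1 was higher at 2 h of HAC in leaf 4, and 15, 14 and 12 were higher with ZmPep3 in leaves 4, 5 and 6, and 2, 3 and 2 were lower, though a TPS symbol can also stand for a trehalose phosphate synthase. The 21 TIFY symbols, whose proteins include repressors of jasmonate responses, held no member. In leaf 4, 15 of them were higher at 30 min of HAC than in controls (2.53% of all genes were) and 3 at 2 h, and 10 were lower at 2 h than at 30 min (2.11% of all genes were). With ZmPep3, 17 TIFY genes were higher in each leaf, and 2, 4 and 0 were lower in leaves 4, 5 and 6.

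Several of the 117 genes stood close together. Of the 116 placed in the gene order of the reference, 6 pairs were direct neighbours and 18 pairs had fewer than 10 coding genes between them. Such pairs were not counted among other genes, so closeness is not read as a trait of the 117. The named pairs among them were lox2 with lox1, Ann9 with Ann8, TPS2 with TPS3, TPS5 with tps10, and BX3, BX5 and bx2 in a row. Both Natterin-4 genes, LOC103646782 and LOC103646784 made another run. Copies in such runs can be similar enough that the authors' counting divided reads between them, so their separate levels are less certain than those of single genes.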

How the data were processed

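BGI DNBSEQ libraries of maize leaf RNA were processed with Bowtie2, RSEM and the build B73 RefGen_v4 (versions of the tools not given in the sources used here), per the submitters' processing notes. The authors deposited unscaled expected counts and FPKM values. Of the expected counts above 0, 11.09% were not whole (tolerance 1e-06), and all were rounded. FPKM served only for levels between genes. Of 43547 entries, 11312 were blank.

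In R 4.3.3 with edgeR 4.0.16, filterByExpr kept 25558 genes, among them all 117 members. TMM scaling and a robust quasi-likelihood fit over all 12 groups followed, with Benjamini-Hochberg adjustment over all genes at 0.05, and ± is the SE. The spread of a gene was pooled over the 12 groups, so the leaf 4 p-values do not measure the spread within leaf 4 alone. CPM used library totals without TMM. Members and lists were chosen with earlier results of these data known. The genes named were the members with a name, those nearest the thresholds, the largest by ratio, FPKM or fitted change, the smallest changes, and members singled out afterwards.

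Names and gene order came from RefSeq's table for Zm-B73-REFERENCE-NAM-5.0, with 116 members. Since the reads used another build, coordinates were left out. The table gives no descriptions, so pathway lists were matched by symbol or synonym, and no promoter motifs were searched. Of the members with a name, 8 had it as symbol and 22 as synonym. Alternatives were DESeq2 1.42.0, its size factors in edgeR, other filters, a replicate block, fits of 2 groups and fits without libraries. The fit was tested on simulated data. Figures were drawn with matplotlib 3.10.9.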

Additional observations from a re-analysis of the deposited data

Results flagged for a closer look

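In 168 groups of 6 libraries examined, 21 had a highest or lowest library far from the others by Dixon's test at its 95% critical value, where chance gives about 1 in 20. The leaf 4 controls gave 8 of them. Control library 2 was highest for lox5 (633 CPM, next 256), opr7 (147 CPM, next 90.4), BX3 (2231 CPM, next 1337), bx2 (766 CPM, next 376), GST25 (97.2 CPM, next 38.4), LOC100284823 (6.89 CPM, next 1.17) and LOC107303346 (6383 CPM, next 3842), and in the median log2 ratio over the 117 genes (0.65, next −0.06). The part of this library in the leaf 4 HAC counts is given by the fits without it; what set it apart was not tested.

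With ZmPep3, the lowest leaf 6 library stood apart for AAMT1 (374 CPM), BX3 (745 CPM) and LOC107303346 (3413 CPM), and the highest for SAMS1 (2015 CPM). The highest leaf 4 library stood apart for phytase2 (8.0 CPM). At 2 h of HAC, the lowest leaf 6 library stood apart for lox5 (4267 CPM) and LOC107303346 (3904 CPM), and the highest leaf 5 library for phytase2 (39.1 CPM). At 30 min of HAC, the highest library stood apart in leaf 5 for lox2 (1372 CPM), GST25 (30.7 CPM) and phytase2 (2.67 CPM) and in leaf 6 for phytase2 (63.0 CPM). The highest leaf 5 control stood apart for lox5 (140 CPM).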

How the results depend on the processing

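The counts of members raised by ZmPep3 hardly moved. Over the alternatives they were 101 in leaf 4, 114 to 116 in leaf 5 and 117 in leaf 6, and without single libraries 100 to 103, 114 to 116 and 117. The leaf 4 count of ZmPep3 over HAC was 83 to 89, and 82 to 92 without single libraries. The leaf 4 HAC counts moved. At 2 h the count of 29 was 7 with only 2 groups fitted, 39 with DESeq2 and 18 to 46 without single libraries. At 30 min the count of 14 was 4 with only 2 groups fitted, 31 without libraries 5 and 6 and 5 to 30 without single libraries. For 2 h against 30 min the count of 14 was 2 with only 2 groups fitted, 2 without libraries 5 and 6 and 2 to 17 without single libraries. The cause of these moves was not tested. Libraries 5 and 6 at 30 min lay low over the same genes, so fits without them are no independent check. Fits of 2 groups and fits without libraries also held fewer libraries. Fits without single libraries kept the dispersion trend estimated from all 72 libraries.

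Replicate numbers recur across groups. A correlation of residuals over 0.1 was found in 23 of the 396 same-number library pairs (median 0.00925). Pairs with different numbers were not examined, so this cannot show whether the numbers pair libraries. The main fit took the number as a label only. With the replicate block the counts were 36, 15 and 15 for HAC in leaf 4, 101, 116 and 117 for ZmPep3 in leaves 4, 5 and 6, and 89 for ZmPep3 over HAC.

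Of 133 single-gene results examined, 6 changed sign without single libraries, none of them past the threshold. Their log2 values ran from −0.27 to 0.12 for LOC103632815, −0.19 to 0.21 for LOC103634970 and −0.87 to 0.068 for LOC100285310 with HAC in leaf 4. They ran from −0.41 to 0.22 for LOC100272675 with ZmPep3, and from −0.22 to 0.068 for BX3 and −0.090 to 0.058 for LOC107303346 with ZmPep3 over HAC in leaf 4. At these depths levels under about 0.1 CPM rest on 3 counts or fewer in a library.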
